A study of Mus musculus with 6 samples.

Results

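Regulatory T cells of mice with a T cell deletion of Furin were compared with those of mice without it, on 2 of the 6 arrays of a mouse series on Furin and CD4 T cells. Both arrays were chosen by their labels alone, CD4-positive, CD25-positive and FoxP3-positive cells used straight after flow cytometric sorting, 1 array for each genotype. Control cells came from mice with loxP-flanked Fur alleles and no Cre (labelled Fur flox/flox, or WT). Furin cKO (conditional knockout) cells came from mice that carried the same alleles and Cre under the Cd4 promoter (labelled CD4 cre Fur flox/flox). All mice were C57BL/6 animals of 10 to 11 weeks. Cre driven by that promoter acts in thymocytes before CD4 and CD8 lineages part, so the gene is deleted in all conventional T cells of the animal and not in regulatory cells alone, and only the cKO mice carried Cre, whose own effect cannot be told apart from the deletion's. The other 4 arrays hold the same 2 genotypes as CD44-positive memory cells, also uncultured, and as naive cells activated in culture through the T cell receptor. The labels do not say how many animals an array stands for. With 1 array a group no value has an SD, no test between genotypes was possible and no p-value is given; each difference describes these 2 arrays.

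Furin is a membrane-bound protease of the secretory pathway that cuts precursor proteins at basic residues. Its substrates include the precursor of TGF-beta 1, integrin alpha chains and other proteases. Regulatory T cells hold back immune responses, depend on the transcription factor FoxP3, on interleukin 2 taken up through CD25 (Il2ra) and on TGF-beta signals, and are known for dividing more often in the body than resting naive T cells.

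The values are array signals, in linear intensity units, scaled by the submitters so that every array has the same trimmed mean. Each gene was read from 1 probe set. The 40th percentile of all signals, 47.6, served as a floor, and 14587 of 18193 genes reached it on at least 1 of the regulatory arrays. A fold with 1 array under the floor was computed against the floor and is marked "at least". Paired signals give the control array first and the Furin cKO array second, and log2 folds are Furin cKO over control.

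The label itself was checked first, and one defining marker went against it. Foxp3, the transcription factor that defines the lineage, read 50.4 and 33.8 on the regulatory arrays, just above and below the floor. The memory arrays gave 1358 and 1116 and the activated ones 27.0 and 11.9. It had 1 probe set, whose position in the transcript was not used here. The other regulatory markers followed the label: 9 of 10 markers with a value were higher on both regulatory arrays than on both memory arrays, Foxp3 being the exception. Il2ra, the CD25 chain used in the sort, read 4277 and 3702 against 1190.3 and 626.8 on the memory arrays, and Gpr83, a receptor typical of regulatory cells, 2972 and 2707 against 687.6 and 433.8. Ikzf2, which encodes the transcription factor Helios, read 13901 and 15968 against 9419 and 8213. Across those 9 genes the lower regulatory signal was 1.18 to 3.94 times the higher memory signal. Some of these markers are shared with activated cells: Ctla4 read 11033 and 10619 on the regulatory and 11925 and 10316 on the activated arrays. T cell genes were bright, with Cd3d at 25987 and 25839.9 and Cd4 at 2752 and 2474. The cells are called regulatory by their label, which Foxp3 goes against.

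**Figure D1:**
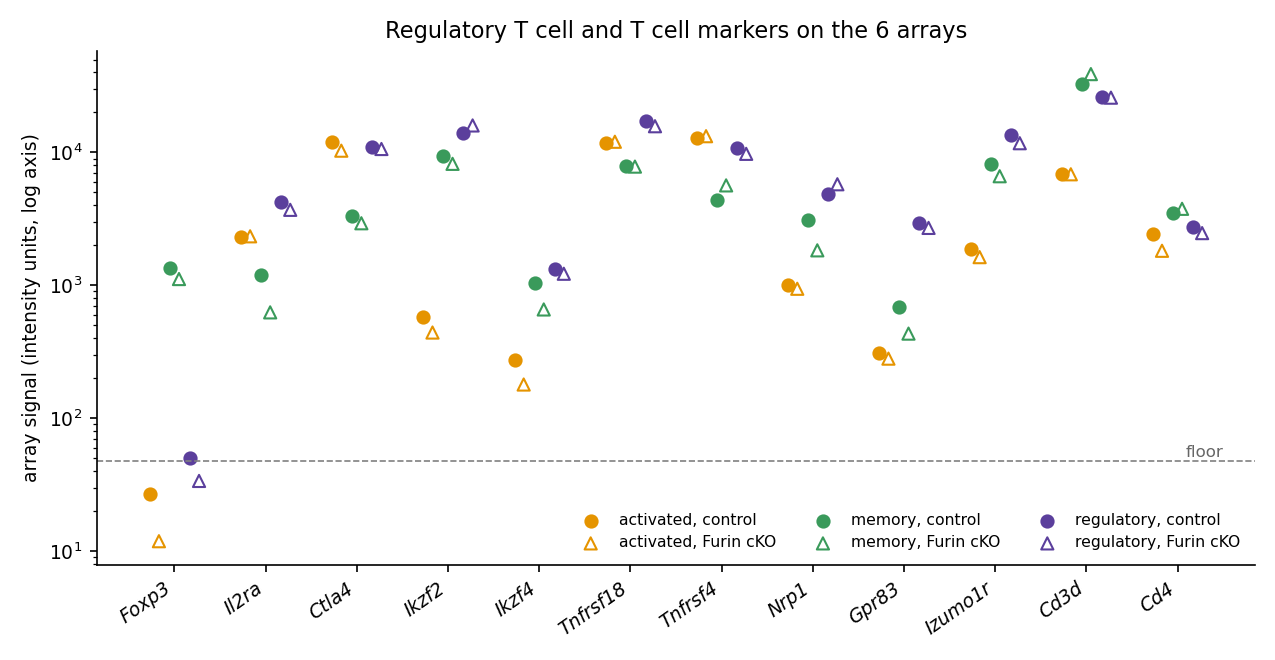
Array signal (intensity units, log axis) of regulatory T cell markers and of 2 T cell genes on the 6 arrays; circles are control and triangles Furin cKO arrays, coloured by population, and the dashed line is the floor of 47.6. Foxp3 lies at 50.4 and 33.8 on the regulatory arrays and at 1358 and 1116 on the memory arrays, while the other regulatory markers, such as Il2ra at 4277 and 3702, are higher on the regulatory than on the memory arrays.

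Furin, the targeted gene, read 547.2 and 410.0 on the regulatory arrays, 1.33-fold lower on the Furin cKO array (log2 fold -0.42). Activated cells gave 515.8 and 468.3. In memory cells it read 647.4 and 2203, higher on the array labelled Furin cKO, so Furin goes against the labels there and every memory direction given below rests on those labels. It had 1 probe set; if that set lies outside the deleted exons, its signal is no check of the deletion, and its position was not used here. Of the other convertases, Pcsk7 read 910.4 and 887.1 and Mbtps1, the convertase that activates SREBP and ATF6, 2139.7 and 2001. Pcsk5 was below the floor on both arrays at 32.1 and 13.9, and Pcsk6 read 48.4 and 22.8. None of the 6 measured convertase genes was 2-fold higher or lower on the Furin cKO array.

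Over the whole genome both regulatory arrays were alike. Of 14587 genes, 458 (3.14%) passed 2-fold upwards on the Furin cKO array and 309 (2.12%) downwards, and the scaled median absolute deviation of the log2 folds was 0.33. Quantile normalization gave 281 higher and 292 lower genes. Most of the 2-fold genes were dim: 468 of the 767 did not reach a signal of 144.8 on either array, and 250 of the higher and 189 of the lower folds were lower bounds. In 5 groups of equal size ranked by mean signal, the share past 2-fold was 4.18% in the dimmest group, then 19.5%, 2.02%, 0.446% and 0.171% in the brightest. 18 genes of the 2 brightest groups passed 2-fold, listed here whatever their function. The 13 higher ones were Hsph1, Cxcr4, Rrm2, Pclaf, Mki67, Lman2l, Ahsa2, Ube2c, Uhrf1, Plin2, Birc5, S100a8 and Ccna2, and the 5 lower ones Igha, Cirbp, Fos, Pacsin1 and Rbmx. The technical measures were close: beta-actin 3' to 5' ratios were 1.35 and 1.36, and 65.8% and 67.4% of all probe sets reached the floor.

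**Figure D2:**
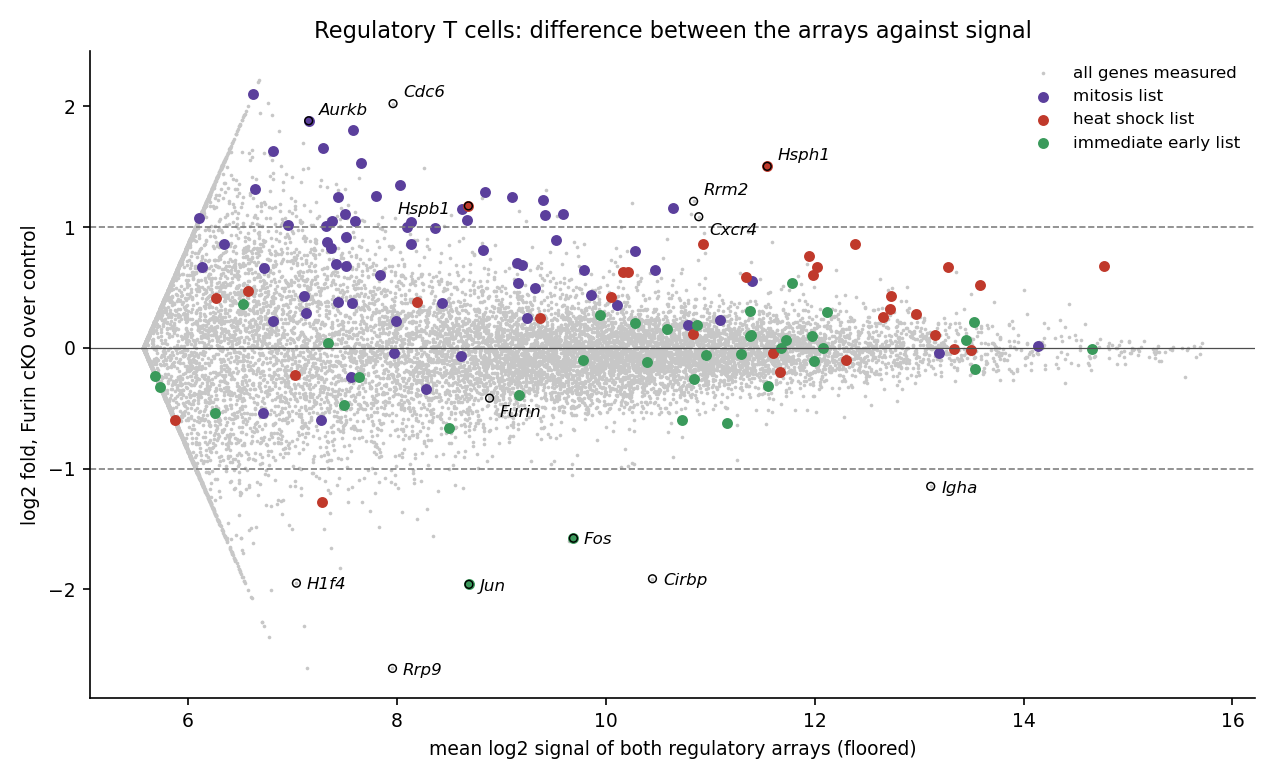
Log2 fold of each of 14587 genes (Furin cKO over control, y axis) against its mean log2 signal on both regulatory arrays (x axis), with the mitosis, heat shock and immediate early lists coloured and some genes named; dashed lines mark 2-fold. Spread narrows with signal: Hsph1 (2.84-fold higher), Cirbp (-1.91) and Igha (-1.15) past the lines among bright genes, while most genes past them are dim.

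Most genes of mitosis were higher on the Furin cKO array. Of 67 measured genes of mitosis and chromosome segregation, 60 were higher and 7 lower, with a median log2 fold of 0.81. 26 passed 2-fold upwards and 0 downwards. That is 38.8% of the list past 2-fold upwards, against 3.14% of all genes, and the median over all genes was -0.02. Dim genes passed it more often: in the second dimmest of the 5 signal groups 352 of 2917 genes did so upwards. Several 2-fold members named below read under 144.8 on the control array, and the share for genes of like signal was not computed. Mki67, the proliferation antigen Ki-67 that coats mitotic chromosomes, read 1074 and 2396, 2.23-fold higher. Cdk1, the kinase that starts mitosis, read 292.9 and 716.9, and its cyclin partner Ccna2 440.9 and 1029.5, 2.33-fold higher. Other cyclin and checkpoint genes differed less: Ccnb2 read 541.1 and 761.8 and Cdc20, the activator of the anaphase-promoting complex, 797.0 and 1079.

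The same direction ran through the parts of the mitotic machinery. Of the chromosomal passenger complex, which corrects chromosome attachment, the kinase Aurkb read 74.3 and 273.7, 3.68-fold higher, Birc5 (survivin) 467.9 and 1002 and the scaffold Incenp 2223 and 3272, 1.47-fold higher. At the kinetochore, where chromosomes meet the spindle, Nuf2 read 144.3 and 344.8 and Cenpe, a kinetochore motor, 134.5 and 278.2. Spc25, a partner of Nuf2, read 163.4 and 417.2, but Spc24 was level at 254.6 and 247.6. Among spindle proteins, the motor Kif11 read 112.5 and 268.1 and the midzone bundler Prc1 282.9 and 588.5, 2.08-fold higher. Ncaph and Smc2, condensin subunits that compact chromosomes, read 264.9 and 589.7 and 1138 and 1782. Top2a, the topoisomerase that untangles sister chromatids, read 939.3 and 1643, 1.75-fold higher. The exceptions were the kinases Plk1 at 348.9 and 276.3, Ttk at 126.7 and 87.0 and Nek2 at 190.5 and 125.8 and the motor Kif20a at 205.6 and 173.8, lower by log2 folds of -0.34, -0.54, -0.60 and -0.24, together with Spc24, Pttg1 and Kif20b within 0.1 of 0. Other probe sets of Nek2 (57.0 and 105.6) and Ttk (24.6 and 147.1) were higher on the Furin cKO array.

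Counted by probe set the direction was the same. Of 114 probe sets of its genes above the floor on both arrays, 96 were higher and 28 at least 2-fold higher, with a median log2 fold of 0.59; over all 26545 such probe sets on the arrays 50.3% were higher and the median was 0.002. Every probe set of Ccna2, Aurkb, Ncaph and Cenpn was past 2-fold. Other genes had probe sets that disagreed: the probe sets of Tpx2, a spindle assembly factor, ranged from -0.63 to 1.53, and those of Nusap1 from -0.08 to 1.25.

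Genes of DNA replication were higher by less. Of 46 measured genes 36 were higher and 10 lower, 4 at least 2-fold higher (Cdc6, Orc1, Rrm2 and Uhrf1), and the median log2 fold was 0.20. That is 8.7% of the list, nearer the 3.14% of all genes than the share of the mitosis list. Cdc6, which loads the replicative helicase onto origins, read 123.8 and 503.3 and was 4.07-fold higher, among the largest differences of any gene above the floor on both arrays. Rrm2, the regulated subunit of ribonucleotide reductase that makes deoxynucleotides, read 1204 and 2794, 2.32-fold higher, and Uhrf1, which brings the maintenance DNA methyltransferase to replicated DNA, 507.3 and 1082. The 6 helicase subunits Mcm2 to Mcm7 differed by log2 folds of at most 0.52 on their representative probe sets, with Mcm5 at 2783 and 3978 the most different and Mcm6 level at 3973 and 3968. A second probe set of Mcm2 went the other way, from 1179.8 to 498.9 (log2 fold -1.24), against 869.1 and 1068 on the first. Pcna, the sliding clamp, was already bright and read 9899.7 and 13518, 1.37-fold higher. On the other side Tyms, thymidylate synthase, read 142.4 and 98.4 and Fen1, the flap endonuclease, 816.0 and 648.4.

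The regulators of entry into the cycle split. Among 27 genes of E2F and the G1 to S step the median log2 fold was 0.08, with E2f8 at 56.4 and 165.4 and E2f7 at 78.7 and 141.6, the repressor E2Fs that are themselves switched on in S phase, and the cyclin Ccne2 at 109.8 and 272.4, 2.48-fold higher. The G1 genes were level, with cyclin D2 (Ccnd2) at 12840.1 and 13130.2, Cdk4 at 1826 and 1703 and Myc at 1828 and 1692. DNA repair genes had a median of 0.22, and 4 of 24 were at least 2-fold higher, among them Brca1, a factor of homologous recombination, at 122.7 and 324.5 and Fanci, of the Fanconi anaemia pathway, at 117.7 and 251.6; the probe sets of Brca1 ranged from -0.02 to 1.40. Inhibitors of the cycle and genes of quiescence had a median of -0.05. Within that list the cyclin-dependent kinase inhibitors Cdkn1a (p21) at 164.5 and 326.3, Cdkn1b (p27) at 3071 and 4959 and Cdkn1c at 86.5 and 175.3 were higher, and the forkhead factors Foxo1 at 4505 and 3636 and Foxo3 at 1560.2 and 1104 lower. In all, 36 of 164 genes on the mitosis, replication, G1 to S and repair lists passed 2-fold upwards and 0 downwards, against 3.14% and 2.12% of all genes. They made up 33 of the 175 genes at least 2-fold higher with an array at or above a signal of 144.8. Shares past 2-fold were larger among dim genes, and shares at like signal were not computed.

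Promoter sequences of cell cycle genes are shown because these genes differed together and because 2 short elements are known from such promoters: the CHR element TTTGAA with CCAAT boxes (ATTGG on the other strand) in genes of mitosis, and E2F sites such as TTTCCCGC in genes of replication. The sequences are RefSeq's for GRCm38.p6, read 5′ to 3′ on the gene's strand and all upstream of the annotated start, with matches on either strand in capitals.
Cdk1, chr10:69352913-69353012, minus strand: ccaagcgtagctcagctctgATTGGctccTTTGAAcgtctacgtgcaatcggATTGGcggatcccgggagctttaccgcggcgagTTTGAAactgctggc
Mki67, chr7:135716460-135716579, minus strand: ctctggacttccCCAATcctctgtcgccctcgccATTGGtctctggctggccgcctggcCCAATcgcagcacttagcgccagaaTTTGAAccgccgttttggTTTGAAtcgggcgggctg
Prc1, chr7:80294396-80294475, plus strand: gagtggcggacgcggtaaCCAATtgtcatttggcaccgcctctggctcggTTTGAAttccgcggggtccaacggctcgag
Cdc6, chr11:98907991-98908050, plus strand: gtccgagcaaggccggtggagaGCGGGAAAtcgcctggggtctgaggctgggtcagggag
Hells, chr19:38930900-38930959, plus strand: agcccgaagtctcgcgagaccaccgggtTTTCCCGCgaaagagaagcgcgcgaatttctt
In Cdk1, Mki67 and Prc1 the capitals mark TTTGAA and ATTGG, in Cdc6 and Hells TTTCCCGC, or its reverse complement. Prc1 has another annotated promoter, not printed, that holds ATTGG but no TTTGAA. The table held 64 promoters of 59 mitosis genes and 47 of 39 replication genes. Over the 250 bases before the start, TTTGAA was found in 29.7% of the mitosis promoters and 16.0% of all 32851 promoters in the table, and ATTGG in 65.6% against 33.8%. TTTCCCGC was found in 8.51% of the replication promoters, 0.895% of all promoters and 0 of the mitosis promoters. Another E2F site, TTTGGCGC, was found in 6.38% of replication, 4.69% of mitosis and 0.417% of all promoters, and ATTGG also in 53.2% of replication promoters. Hells, a chromatin remodeller of replicating DNA, read 517.7 and 818.2. A match of letters is a description and does not show that a factor binds there.

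The 3 genotype pairs share no array, and the same lists can be set side by side. Mitosis genes had median log2 folds of 0.81 in regulatory, 1.81 in memory and -0.01 in activated cells, and replication genes 0.20, 0.68 and -0.07. In memory cells 55 of 68 mitosis genes passed 2-fold upwards, where 5.62% of all genes did and 3.64% passed it downwards. In activated cells 0 of 68 did, against 0.390% and 0.372% of all genes. Mki67 read 1259.9 and 5261 in memory and 9774 and 10102 in activated cells, and Rrm2 1029 and 6528 and 13866 and 13965. Both control levels in uncultured cells were thus well under those of the activated cells, and the difference was larger in memory than in regulatory cells; the difference between the pairs was not tested. In these bulk samples more cycling cells and more transcript per cycling cell cannot be told apart. Of the 12 measured granulocyte markers 7 were higher and 5 lower on the regulatory Furin cKO array, with medians of 0.47 there and 1.46 in memory cells; the regulatory median ran from 0.13 to 0.89 over the alternative settings. The part of other cells in the cell cycle difference was not tested.

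**Figure D3:**
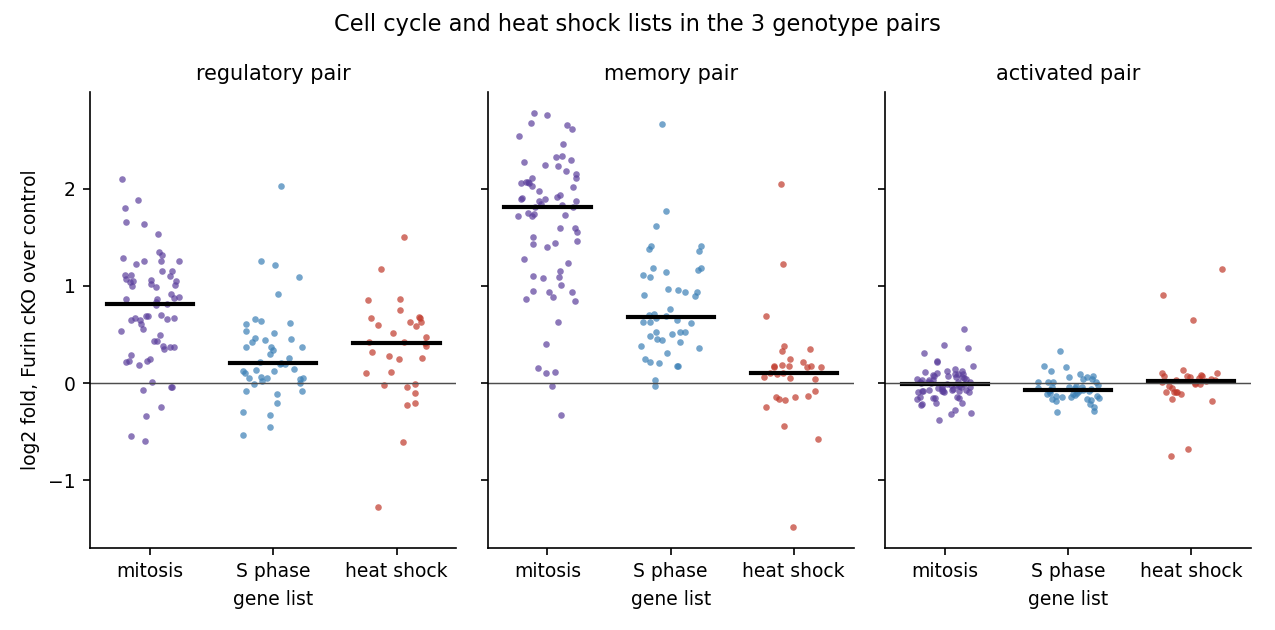
Log2 folds (Furin cKO over control) of the measured members of the mitosis, replication and heat shock lists in the regulatory, memory and activated pairs, 1 point a gene, with the list medians as black bars. Mitosis medians are 0.81, 1.81 and -0.01 in that order, and heat shock medians 0.42, 0.10 and 0.02.

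Heat shock chaperones were the other large group that was mostly higher, and these genes were bright. Of 32 measured genes of the cytosolic heat shock list 24 were higher and 8 lower, with a median log2 fold of 0.42 against 0.10 in memory and 0.02 in activated cells. The list held 9 of the 25 genes (0.857%) that were at least 1.5-fold higher within the brightest group of 2918 genes, and 0 of the 7 (0.240%) at least 1.5-fold lower; 21 of its genes lay in that group. This 1.5-fold count was added after the first results were seen. Many of these genes are known targets of heat shock factor 1, and most of their products fold or hold other proteins in the cytosol, a few in mitochondria or the endoplasmic reticulum.

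Hsph1, an HSP110 exchange factor for HSP70, differed most. It read 1776 and 5036, 2.84-fold higher, and the log2 fold of its other probe set was 1.37. The memory pair gave 1914 and 1610.4 and the activated pair 8337 and 8466, close to level in both. Hspb1, the small chaperone HSP27, read 273.8 and 618.7, 2.26-fold higher. Of the HSP70 family, the constitutive Hspa8 read 22067 and 35379 and the inducible Hspa1b 927.3 and 1431, 1.60-fold and 1.54-fold higher, while Hspa1a, its near-identical copy, read 140.3 and 120.3; a probe set may pick up both copies. In memory cells both inducible genes were at least 2-fold higher on the array labelled Furin cKO, Hspa1b at 4993 and 11686 and Hspa1a at 447.4 and 1845. The J-proteins that hand clients to HSP70 were higher too, Dnajb1 at 2123 and 3189 and Dnaja1 at 10245 and 14695, but Dnajb6 read 3499 and 3045 and Dnaja2 was level at 10320.2 and 10283.

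The HSP90 system gave the longest run of bright genes. Hsp90aa1, the inducible HSP90, read 7861 and 12508, 1.59-fold higher, with probe sets from -0.35 to 1.11. Several cochaperones were higher, the ATPase activator Ahsa1 at 3286 and 5240.2, the HSP70 to HSP90 adaptor Stip1 at 1452 and 2632, Chordc1 at 3984 and 7239, St13 (HIP) at 3032 and 5124 and Cacybp at 3279.5 and 4977. Fkbp4, an immunophilin that binds HSP90, read 952.2 and 1472, and Ahsa2, a relative of Ahsa1, 802.8 and 1607. Stip1 was 1.81-fold and Chordc1 1.82-fold higher. The mitochondrial pair Hspd1 and Hspe1, which are transcribed from a shared promoter, read 5849 and 7857 and 7260.0 and 8835. Of the measured subunits of the chaperonin that folds actin and tubulin, Cct3 at 6033 and 7555 differed most and Cct2 was level at 11650.3 and 11485. The member furthest the other way was Serpinh1, a collagen chaperone of the endoplasmic reticulum, at 242.9 and 100.4, 2.42-fold lower.

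Promoter letters of 4 chaperone genes are given because the members differed together and heat shock factor 1 is known to bind runs of GAA and TTC units. They are from the same table, and capitals mark GAANNTTC or TTCNNGAA.
Hsph1, chr5:149636337-149636396, minus strand: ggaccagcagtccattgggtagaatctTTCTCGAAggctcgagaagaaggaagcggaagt
Hspb1, chr5:135887779-135887838, plus strand: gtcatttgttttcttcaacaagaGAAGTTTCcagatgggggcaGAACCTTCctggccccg
Fkbp4, chr6:128438777-128438826, minus strand: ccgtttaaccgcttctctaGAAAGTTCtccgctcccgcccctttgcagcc
Hspe1, chr1:55088038-55088097, plus strand: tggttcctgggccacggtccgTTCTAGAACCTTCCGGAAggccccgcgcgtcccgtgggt
Hspe1 holds overlapping matches. Of 38 promoters of 29 heat shock list genes 28.9% held GAANNTTC and 21.1% TTCNNGAA within 250 bases before the start, against 6.69% and 7.17% of all 32851 promoters; both motifs read the same on either strand, and TTCNNGAA was added after the first results were seen. Among genes with a match were some that were higher, such as Hsph1, and some that differed less, such as Hspe1 (log2 fold 0.28). Dnajb6, with both motifs, was lower (-0.20). Among genes with no match Stip1 and Chordc1 were higher and Serpinh1 lower, so a match did not go with the direction in every gene.

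Other stress lists lay closer to 0. Genes of folding in the endoplasmic reticulum had a median log2 fold of 0.05, with Hspa5 (BiP), the main chaperone there, at 12058 and 13733 and Hsp90b1 at 5627 and 7855. Ddit3 (CHOP), a marker of unresolved stress, read 1300.4 and 1109.9, and targets of ATF4 such as Asns, asparagine synthetase, 279.5 and 262.1. Genes controlled by p53 had a median of 0.14. Cirbp, which encodes an RNA-binding protein made more at low temperature and less in heat, read 2709 and 719.7, 3.76-fold lower, and 2893 and 2188 on the memory arrays. Splicing factors listed with it did not follow: the median of 17 genes was 0.05, and Tra2a, a splicing activator, read 2013 and 3090.0, 1.53-fold higher.

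**Figure D4:**
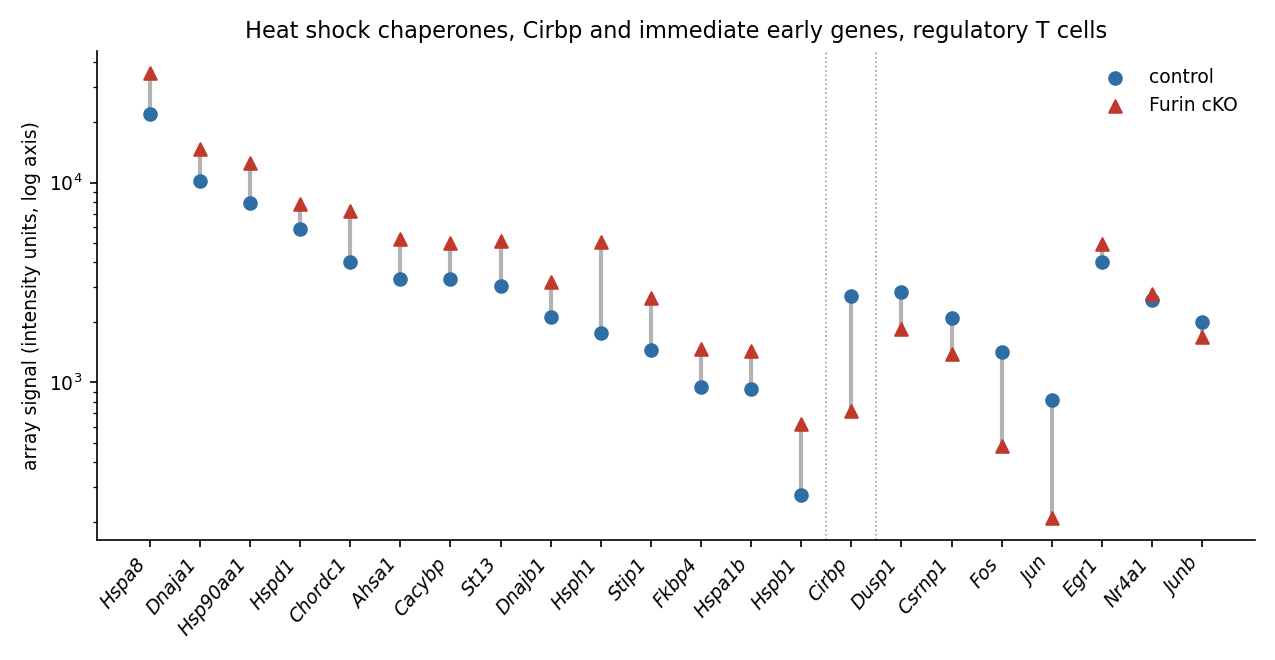
Array signal (intensity units, log axis) of 14 heat shock genes, of Cirbp and of 7 immediate early genes on the control (blue circles) and Furin cKO (red triangles) regulatory arrays; a grey bar joins both values of a gene. The 14 chaperone genes shown are all from the higher members of the list, which had 24 higher and 8 lower, and no lower one is shown. Cirbp, Fos and Jun have the longest bars downwards.

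Immediate early genes, the first to respond to a stimulus, lay on both sides of 0, and the AP-1 genes Jun and Fos stood out. Of 37 genes 17 were higher and 20 lower, and the median log2 fold was -0.05. Jun read 814.5 and 209.5, 3.89-fold lower, with probe sets from -1.96 to -0.88, and Fos 1427 and 478.5, 2.98-fold lower. In memory cells both pointed the other way, Jun at 393.8 and 2441 and Fos at 628.0 and 4469. Dusp1, a phosphatase that ends MAP kinase signals, read 2848 and 1850.3 and Csrnp1 2089.7 and 1382, 1.54-fold and 1.51-fold lower. Other AP-1 genes were close to level, Junb at 2007 and 1681 and Jund at 3887 and 4169.7, and so were genes induced through the T cell receptor, Nr4a1 at 2588 and 2785 and Egr1 at 4024 and 4931.

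The regulatory programme itself was close to level, apart from Foxp3, which at 50.4 and 33.8 lay too near the floor to be compared. Of 27 transcription factors of regulatory T cells 12 were higher and 15 lower, with a median log2 fold of -0.04, and of 32 surface and signature genes 16 and 16, with a median of -0.0041. No member of either list differed by 2-fold, against 3.14% of all genes higher and 2.12% lower. Many of the members named here are bright. Of the 2 brightest groups of genes 0.446% and 0.171% passed 2-fold, so this count is near that of bright genes in general. Helios (Ikzf2) read 13901 and 15968, Eos (Ikzf4) 1337 and 1224, Prdm1 (Blimp-1), which drives effector regulatory cells, 2008 and 1969 and Irf4 1716 and 1719. On the representative probe sets Runx1 and Maf were the most different upwards, 934.9 and 1327 and 5764 and 8122. Other probe sets of Runx1 ranged down to -1.43, and its brightest on these arrays was level at 1580.3 and 1521.0. Stat5a, which carries the interleukin 2 signal to the Foxp3 locus, was the most different downwards at 1762 and 1202, although its twin Stat5b was level at 3301 and 3189.

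Molecules of suppression differed by less than 2-fold as well. Ctla4, which strips CD80 and CD86 from antigen-presenting cells, read 11033 and 10619, Tnfrsf18 (GITR) 17376 and 15756 and Izumo1r (folate receptor 4) 13455 and 11739.8. The ectoenzymes that turn ATP into adenosine lay on either side of 0, Nt5e (CD73) at 4059 and 5464 and Entpd1 (CD39) at 581.5 and 531.6. Il10, an inhibitory cytokine, read 350.4 and 409.1, Ebi3, a subunit of interleukin 35, 1427 and 1667, and Gzmb, a cytotoxic granule protease, 1926 and 2444. Lag3 and Lgals9 were lower, 807.1 and 621.7 and 4646 and 3526. Over the suppressor list the median log2 fold was 0.11.

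Effector regulatory genes had a median log2 fold of 0.06 and genes of resting, lymphoid-tissue regulatory cells -0.20, with 14 of 19 lower; the latter median was -0.08 with the mean of all probe sets of a gene. In the resting list Ccr7, the receptor that guides cells into lymph nodes, read 4117 and 3374, S1pr1, needed to leave them, 2679.7 and 2318, Foxo1 4505 and 3636 and Bach2, which holds back effector genes, 2136 and 1800.3. The other probe sets of Bach2 were higher, at 1077 and 1399.9 and at 128.3 and 169.8. Il6st, the shared receptor chain of the interleukin 6 family, read 2957 and 2012 on its representative probe set. Its measured probe sets ranged from -1.37 to 1.59. Members going the other way were Klf3 at 5411 and 6716 and Il7r, the interleukin 7 receptor, at 7317 and 9034. On the representative probe sets each of these differences was smaller than 2-fold.

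**Figure D5:**
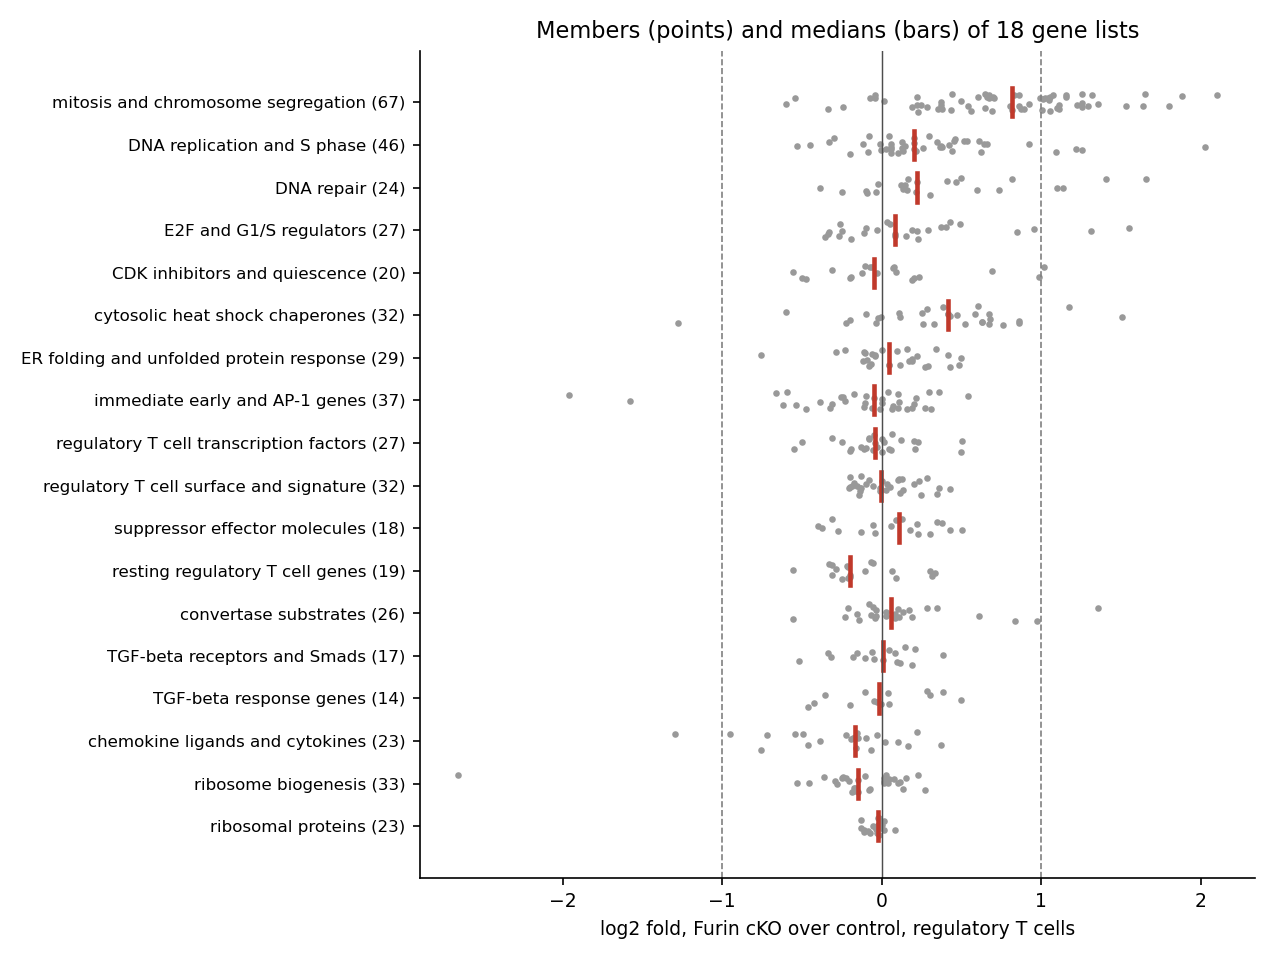
Log2 folds (Furin cKO over control) of the measured members of 18 gene lists in regulatory T cells, 1 grey point a gene, with list medians as red bars, the number of measured members in brackets and dashed lines at 2-fold. Medians run from 0.81 for mitosis and 0.42 for heat shock chaperones to -0.20 for resting regulatory T cell genes, and the regulatory transcription factor and surface lists have no member past 2-fold.

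Genes of the TGF-beta system, where Furin has its best known substrate, differed by less than 2-fold with 1 exception. Of 9 measured genes of TGF-beta activation 6 were higher and 3 lower, with a median log2 fold of 0.35 that ran from 0.01 to 0.36 over the alternative settings. Tgfb1 itself read 1979.7 and 1919.5. The integrin chains that release the cytokine from its latent complex, Itgav and Itgb8, read 3541 and 4507 and 1038 and 1331, 1.27-fold and 1.28-fold higher. Ltbp3, which stores the latent complex in the matrix, read 54.8 and 167.7, 3.06-fold higher but dim. Its other probe sets were below the floor on both arrays. Ltbp3 was the only activation gene past 2-fold, 11.1% of the 9 against 3.14% of all genes. The receptors Tgfbr1 and Tgfbr2 read 3446 and 3932 and 5976 and 6004. Among the signal carriers Smad2 read 1339.8 and 1283, Smad3 2244 and 1776 and the inhibitory Smad7 637.9 and 659.2. Genes known to respond to TGF-beta had a median of -0.01: Klf10 read 425.0 and 600.5 and Skil 2943 and 3838, both higher, Itgae (CD103) 3328 and 4051, and Pmepa1 798.7 and 594.2 and Id1 77.8 and 56.5, both lower. Over 26 measured genes of convertase substrates the median was 0.06. Bdnf, at 24.5 and 121.9 and at least 2.56-fold higher, was the only one past 2-fold, 3.85% of them against 3.14% of all genes. The bright substrates Notch1 at 2842 and 2766, Adam10 at 4106 and 4355 and Itga4 at 8562 and 8728 were level on their representative probe sets. Dimmer probe sets of Itga4 went both ways, at 167.1 and 70.8 and at 379.4 and 578.4. A dimmer probe set of Adam10 read 253.6 and 379.4. Protein processing was not measured by these arrays.

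Receptors, cytokines and signalling gave few differences. Cxcr4, the receptor for CXCL12 that keeps cells in bone marrow and other niches, read 1303 and 2767, 2.12-fold higher on its 1 probe set above the floor, and 894.9 and 898.0 in memory cells. It was the only one of 31 trafficking genes past 2-fold, 3.23% of them, near the 3.14% of all genes that passed it upwards. Cxcr3 read 8834 and 7545, Ccr6 1700.1 and 1565 and S1pr4 3306 and 3628. Of 23 chemokine and cytokine genes 18 were lower and 5 higher with a median of -0.17; in activated cells the median was 0.94. Ccl1 read 116.7 and 12.3, at least 2.45-fold lower, Ccl3 98.5 and 50.9 and Ccl4 183.1 and 130.0, while Ifng was level at 164.4 and 157.0 and Ccl5 at 2455 and 2489. Type 1, type 2, type 17 and follicular helper lists had medians of -0.11, -0.19, -0.06 and 0.12; the type 17 median turned to 0.06 when members below the floor on 1 array were left out, and the type 2 median was -0.04 with an offset of 50. Of 33 genes of T cell receptor signalling 24 were lower by small amounts (median -0.04), the largest being the adaptor Skap1 at 7039 and 5063 and Cd3e at 6552 and 4974, while Zap70 and Cd3d were level at 3863 and 3844 and 25987 and 25839.9.

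Ribosome and metabolism lists were near 0 with single exceptions. Ribosome biogenesis had a median of -0.15, with 20 of 33 lower. Rrp9, a protein of the U3 particle that processes ribosomal RNA, read 624.2 and 99.1 and was 6.30-fold lower, the largest difference among genes that reached the floor on both arrays and 144.8 on one, clone-like names left out. On their representative probe sets other members of the list differed far less, with the polymerase subunit Polr1b at 439.8 and 304.7 and nucleolin (Ncl) at 14733 and 12962. Dimmer probe sets of Ncl disagreed, at 644.0 and 249.9 (log2 fold -1.37) and at 57.7 and 78.2 (0.44). The linker histone gene H1f4 read 258.3 and 66.9, 3.86-fold lower, against a histone median of -0.04. Ribosomal proteins had a median of -0.02, glycolysis -0.05, the respiratory chain -0.03, the proteasome -0.06, lysosome genes -0.06, and cholesterol and fatty acid synthesis -0.05. In the last list Mvk, mevalonate kinase, read 226.3 and 141.7 and Cyp51, a demethylase of sterol synthesis, 648.4 and 446.2, while Scd1, which desaturates fatty acids, read 26.9 and 170.7, at least 3.59-fold higher.

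Markers of other cells were present on both arrays, and several differed. Of 12 measured granulocyte genes 5 passed 2-fold upwards and 1 downwards, against 3.14% and 2.12% of all genes and larger shares of dim genes; the 16 genes of the list summed to 1958 and 3308. S100a8 and S100a9, the calprotectin subunits of neutrophils, read 444.0 and 1032 and 387.7 and 850.9, whereas the neutrophil receptors Cxcr2 at 7.5 and 16.8 and Csf3r at 23.0 and 24.6 and the enzyme gene Elane at 20.5 and 43.1 were below the floor on both. Of 11 measured red cell and platelet genes 8 were lower, 4 of them at least 2-fold, against 2.12% of all genes. 1 of these was above the floor on both arrays, and the list median of -0.50 was -0.06 over members above it on both. Car1, an erythrocyte carbonic anhydrase, read 229.4 and 12.0 and the anion exchanger Slc4a1 199.5 and 41.9, at least 4.82-fold and 4.19-fold lower, with the list's sum at 2622 and 1739. Antibody genes were bright, and the immunoglobulin A heavy chain gene Igha read 13170.1 and 5947, 2.21-fold lower with all 3 probe sets between -1.15 and -1.02, and Jchain, which joins antibody chains, 2190.5 and 1315. In memory cells Igha pointed the other way at 2754 and 14979.8. The B cell genes Cd79a at 142.3 and 104.1 and Ms4a1 (CD20) at 268.4 and 485.3 were dim; the plasma cell list summed to 27508 and 19194.

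The other marker lists were mixed. Myeloid and dendritic genes had 14 members higher and 14 lower and summed to 9106 and 9694. B cell genes had a median log2 fold of 0.24 but sums of 24271 and 21520.0, most of which was Ighm at 16773 and 13928. Stromal and epithelial genes had a median of 0.52, with Dcn at 49.1 and 111.1 and Epcam at 679.3 and 1089, and CD8 and natural killer genes 0.16. The stromal median falls to -0.02 with a floor of 144.8. The part of these cells in the other differences was not tested.

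Besides the chaperones the brightest group held 16 genes at least 1.5-fold higher, among them Dck, a kinase that salvages deoxynucleosides, at 2988 and 4504, Stmn1 (stathmin), which destabilises microtubules, at 2287 and 4189, Cks1b, a subunit of cyclin-dependent kinases, at 2097 and 3441 and Pclaf, a partner of PCNA, at 1228 and 2649.8. These were named after their values were seen. The remaining large differences were single genes. Above the floor on both arrays and lower were Ntn1, a guidance cue, at 307.3 and 62.4, Rhbdd2 at 328.9 and 93.1, Gorasp1, a Golgi stacking protein, at 294.1 and 93.2 and Pecr at 265.4 and 93.7. Higher were Dok3, an adaptor that restrains immune receptor signals, at 57.3 and 217.7, Creld1 at 63.0 and 218.9, Ciart, a repressor of the circadian clock, at 65.0 and 201.5 and Hyal2 at 52.2 and 160.4. Each of these had an array under 144.8. Of other clock genes Per1 was closer at 527.4 and 651.9, and Dbp was 1.95-fold lower at 991.6 and 508.0. The largest lower bounds were Dnajc22 at 251.0 and 24.8 and Ulk3 at 234.9 and 47.4 downwards, and Pot1b at 35.2 and 219.0 and the mitosis gene Stil, needed to duplicate centrioles, at 42.9 and 204.0 upwards, followed by Bok, a BCL2 family gene, at 22.3 and 190.4. Of the genes past 2-fold, 63 higher and 46 lower ones had another probe set above the floor on both arrays. Every probe set pointed the same way for 36 and 20 of these, and at least 1 pointed the other way for 27 and 26. Of the genes named here whatever their fold, 125 had another measured probe set, and in 51 at least 1 of these pointed the other way, by a log2 fold over 0.3 in 33. Dck, Hells, Fen1, Ddit3, Dnajb6, Itgav, Tgfbr1, Smad3, Klf3, Foxo3, Ikzf2 and Rhbdd2 were among the 33, so their direction rests on the representative probe set. Of the genes past 2-fold, Rbmx, an RNA-binding protein gene, had probe sets from -1.60 to 0.66, and Lsm12 from -1.56 to 0.78. Over the 5557 genes with 2 or more probe sets above the floor on both arrays, all were past 2-fold for 7 higher genes (Hsph1, Hspb1, Ccna2, Aurkb, Ncaph, Cenpn and Zcchc3) and for 1 lower gene (Igha).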

How the data were processed

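RNA of sorted mouse CD4 T cells was measured on 1 3' expression array for each genotype and population. The deposited signals are linear intensity values, which per the submitters' processing notes come from MAS5, of unstated version and settings; the trimmed mean (2% off each end) is the same on all 6 arrays. Of 45101 probe sets, 34945 had 1 gene symbol, 932 several and 9160 none in the platform annotation; 34741 were matched to RefSeq names. Where a gene had several probe sets, the brightest one (by mean log2 signal of the 6 arrays, low signals raised to the floor) stood for it, and genes under the floor on both arrays were left out. The platform and its number of arrays limit the precision, and no test was run. The fold code was tested on simulated data.

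Named genes were the targeted gene, the 20 largest differences each way among genes that reached the floor on both arrays and, on the brighter one, the 60th percentile (144.8), the 8 largest lower bounds each way, genes on which 2 or more probe sets agree, and list members named to describe a list; genes with clone-like names were left out of the rankings, and bright genes outside this rule were named after their values were seen. Members and lists were chosen with earlier results of these data known. Promoters are RefSeq's (GRCm38.p6). Alternatives changed normalization (limma 3.58.1 in R 4.3.3), centring, floor, offset, probe set rule and fold threshold. Python 3.11.15 with pandas 2.3.3 and numpy 2.4.6 was used.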

Additional observations from a re-analysis of the deposited data

Results flagged for a closer look

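Some genes differed in opposite directions in regulatory cells and in another pair, at least 2-fold in both apart from Furin; with 1 array a group the difference was not tested, and memory directions rest on labels that Furin goes against. Furin itself had a log2 fold of -0.42 in regulatory and 1.77 in memory cells. Of the genes lower in regulatory and higher in memory Furin cKO cells, the AP-1 genes Jun and Fos had -1.96 against 2.63 and -1.58 against 2.83, and Igha -1.15 against 2.44. Hapln3 had -1.31 and Borcs7 -1.09, against 1.53 and 1.03. Of those higher in regulatory and lower in memory cells, Creld1 had 1.80 against -1.17, Tepsin 1.48 against -1.21, Grk3 1.37 against -1.22 and Klrk1, which encodes the receptor NKG2D, 1.30 against -1.22. Slc16a4 had 1.16, Dok7 1.04, Spib 1.02 and Wfs1 1.01, against -1.10, -1.38, -1.41 and -1.31. All genes of this second group were dim on the regulatory control array, from 63.0 for Creld1 to 118.3 for Slc16a4. Hapln3 was dim on the regulatory Furin cKO array, at 70.4. Shares past 2-fold were larger among dim genes. Other probe sets of Slc16a4 (121.7 and 48.8) and Dok7 (55.1 and 25.1) were lower on the regulatory Furin cKO array. Against the activated pair, Rpl39l had -1.48 and 1.27, and Zdhhc12 -1.03 and 1.85.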

How the results depend on the processing

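No paired analysis was possible because each group holds 1 array and the labels carry no replicate numbers. The genes at least 2-fold higher, 458, and lower, 309, numbered 220 and 202 after cyclic loess, 39 and 39 with a floor at the 60th percentile, 1710 and 1435 with one at the 20th, 259 and 145 with a floor per array, 258 and 180 with the mean of all probe sets, 208 and 120 above the floor on both arrays, 1403 and 1134 at 1.5-fold and 52 and 50 at 3-fold; quantile normalization gave 281 higher. The cause was not tested beyond what these settings change by construction. Furin stayed between -0.46 and -0.38. The mitosis median of 0.81 was 0.65 with the higher floor, 0.54 with the mean of all probe sets and 0.65 with an offset of 50. The stromal and epithelial median of 0.52 turned to -0.0169 with the higher floor, and Slc16a4 from 1.16 to -0.0812 with the mean of all probe sets. Of the medians named above, chemokines and cytokines went from -0.17 to -0.07 with the higher floor, and B cell genes from 0.24 to 0.10 with the mean of all probe sets. Of 54 list medians, 38 moved by less than 0.1 under every alternative run and 39 kept their sign; of 218 named genes 198 kept their sign, and of the 75 past 2-fold 74 did, Slc16a4 being the exception.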

Other observations

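The circadian clock genes, not described as a group above, had a median log2 fold of 0.16, with 10 of 16 measured members higher. The repressors Per2 at 71.5 and 113.7, Per3 at 129.8 and 183.3 and Cry2 at 169.3 and 269.9 were higher on the Furin cKO array on their representative probe sets, but other probe sets of Per2 (90.2 and 21.0) and Per3 (103.2 and 72.6) were lower. The output factors Dbp at 991.6 and 508.0 and Tef at 1069 and 888.5 were lower, Tef with dim probe sets that went the other way. The core activators Arntl at 709.9 and 792.6 and Clock at 640.6 and 682.0 were close to level.

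Ligands of the TNF family differed in both directions, and 0 of the 23 measured genes of the TNF and TNF receptor list passed 2-fold. Tnfsf4 (OX40 ligand) read 102.3 and 192.3, Tnfsf9 (4-1BB ligand) 135.2 and 230.0, Tnfsf8 (CD30 ligand) 585.3 and 860.6 and Tnfsf14 (LIGHT) 234.5 and 342.8, all higher on the Furin cKO array apart from a second probe set of Tnfsf14 at 174.9 and 141.1, while Cd70 read 129.7 and 70.5 and Lta (lymphotoxin alpha) 1857 and 1381, both lower. Their receptors Tnfrsf4 (OX40) at 10894 and 9766 and Tnfrsf9 (4-1BB) at 4598 and 4004 differed little, and the list's median was -0.0014. Tnfsf4, Tnfsf9 and Cd70 each had an array under 144.8, and folds spread more among dim genes. Interferon-stimulated genes had a median of -0.05, NF-kB pathway genes -0.06 and cytokine receptors with their JAK-STAT partners -0.03.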
